A study of Torulaspora delbrueckii with 9 samples.

Results

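The regions described here are places on the chromosomes of the budding yeast Torulaspora delbrueckii where the Orc2 or Orc4 subunit of the origin recognition complex was listed as bound and the Orc1 subunit was not. They were chosen from the peak calls themselves. Joining all peaks of the 6 deposited lists that shared 1 bp or more gave 542 regions. One was kept if it had a peak in at least 1 of the 4 Orc2 and Orc4 lists and in neither Orc1 list. This left 240 regions, 44.3% of all regions and 52.4% of the 458 regions with an Orc2 or Orc4 peak. Of the others, 198 had a peak in all 6 lists, 84 had Orc1 peaks only, and 20 had Orc1 peaks with some of the Orc2 and Orc4 lists.

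The data came from chromatin immunoprecipitation followed by sequencing (ChIP-seq) of cross-linked cells grown in the rich glucose medium YPD. There were 2 libraries each of Orc1 with a MYC tag (strains LRY3204 and LRY3211), Orc2 with a V5 tag (LRY3142 and LRY3143) and Orc4 with a V5 tag (LRY3138 and LRY3139). The controls were 2 genomic inputs and 1 mock immunoprecipitate from the untagged strain JRY10156. Each library has its own strain number, although the design text speaks of technical replicates, so the spread between them may be technical. Peak names in the files show that the Orc1 lists were called against an input and the Orc2 and Orc4 lists against the mock. For Orc1 against Orc2 or Orc4, the effects of subunit, tag, antibody and control cannot be told apart. The terms SIR and Kos3V5 appear in the names of Orc1 peaks, and the control is numbered differently there than in the labels. Peak names of all 6 lists contain the term subsample, and its bearing on depth and on the length of each list was not tested. No label says what these terms mean or whether the strains differ in more than the tag.

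The origin recognition complex is a ring-shaped assembly of several subunits that binds replication origins and loads the MCM helicase there. Orc1, Orc2 and Orc4 are all parts of the same ring, and Orc1 and Orc4 bind ATP in the complex of Saccharomyces cerevisiae. In that yeast, origins lie mostly between genes. The roles of genes named below are those of their Saccharomyces cerevisiae namesakes.

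Most regions without Orc1 were found in a single library. Of the 240, 135 (56.2%) had a peak in 1 list, 60 in 2, 29 in 3 and 16 in all 4. Orc4 library 1 held 180 of them and was the sole list for 83. Orc2 library 1 held 96, Orc2 library 2 held 104, and Orc4 library 2 held 26. Libraries of the same subunit shared few of these regions: 49 of the 151 regions in either Orc2 list (32.5%) were in both, and 20 of the 186 in either Orc4 list (10.8%) were in both. Orc2 and Orc4 were both represented at 97 regions, Orc2 alone at 54 and Orc4 alone at 89. Of the 240 regions, 214 (89.2%) were missing from Orc4 library 2 as well as from both Orc1 lists. The number of regions depended on the strength of peaks admitted. It was 56 with peaks of −log10 q of at least 10, and 73 when each list was reduced to its 248 strongest peaks.

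**Figure D1:**
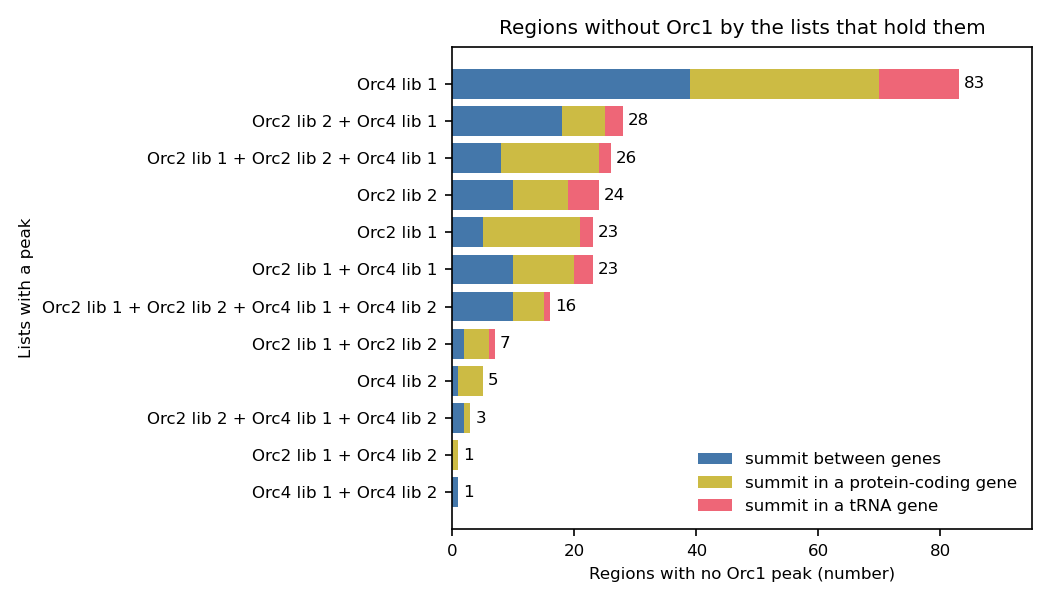
Number of regions with no Orc1 peak (horizontal axis) for each combination of Orc2 and Orc4 lists that held them (vertical axis), with colours for the place of the summit. The longest bar, 83 regions, is Orc4 library 1 alone, and 16 regions were in all 4 lists.

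The number of lists went with the absence of Orc1. Regions with a peak in 1 of the Orc2 and Orc4 lists lacked Orc1 in 135 of 140 cases (96.4%), those in 2 lists in 60 of 67 (89.6%), and those in 3 lists in 29 of 34 (85.3%). Of the 217 regions in all 4 lists, 16 lacked Orc1 (7.37%). These shares rest on the same peak calls that chose the regions, so they are a description and were not tested.

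The share of a list's peaks that lay in these regions differed most between the Orc4 libraries. They held 28.6% of the 339 peaks of Orc2 library 1 and 30.4% of the 342 peaks of library 2. In Orc4 they held 44.1% of the 408 peaks of library 1 and 10.5% of the 248 peaks of library 2. Both Orc2 values lay between the Orc4 values. The means were 29.5% ± 1.27 (SD, n = 2) for Orc2 and 27.3% ± 23.8 (SD, n = 2) for Orc4, a difference of −2.21 percentage points (exact two-sided permutation p = 1, where the 6 splits cannot give less than 0.333). The sign rested on Orc4 library 2, without which the difference was 14.6 percentage points, and without Orc4 library 1 it was −19.5. A test of this size cannot show that the subunits were alike, and the share comes from the peak calls that chose the regions.

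Fold enrichment, the authors' ratio of immunoprecipitate to control at a summit, was low at these regions in all 4 lists. The median over the regions was 2.15 in Orc2 library 1, 2.18 in Orc2 library 2, 2.18 in Orc4 library 1 and 2.12 in Orc4 library 2. At the 198 regions in all 6 lists, the medians of the same lists were 14.4, 15.0, 18.0 and 12.6. No region without Orc1 reached the lower quartile of the regions in all 6 lists, which was 9.38, 8.91, 10.7 and 7.98. The highest value of a region stayed under 3 in 212 of 240 regions (88.3%) and was 4 or more in 8. Since a peak enters a list only past a significance threshold, and regions in all 6 lists had to pass it 6 times, these levels describe the choice and were not tested.

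**Figure D2:**
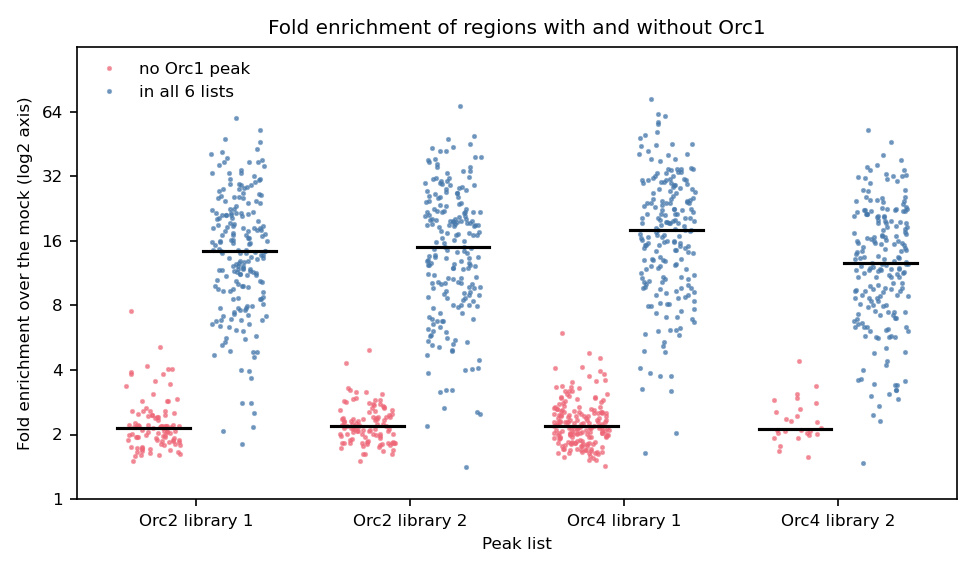
Fold enrichment over the mock (vertical axis, log2 scale) of each region in each Orc2 and Orc4 list (horizontal axis), with regions lacking Orc1 in red, regions in all 6 lists in blue and medians as black lines. Medians of regions lacking Orc1 lay between 2.12 and 2.18, and those of regions in all 6 lists between 12.6 and 18.0.

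Lists differed in how many weak peaks they held. Peaks with fold enrichment under 2.5 were 29 of 263 (11.0%) in Orc1 library 1 and 54 of 300 (18.0%) in Orc1 library 2. They were 31.0% and 30.7% of the Orc2 lists, 34.1% of Orc4 library 1 and 13.7% of Orc4 library 2. The lists with few weak peaks were thus the Orc1 lists and Orc4 library 2. The lowest −log10 q-value was 1.92 and 2.00 in the Orc1 lists, 1.33 and 1.41 in the Orc2 lists, and 1.37 and 1.81 in the Orc4 lists. Ratios to an input and to a mock are not on the same scale, and the part of this difference in the absence of Orc1 was not tested.

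Significance and width are given by number of lists as a description. Both come from the peak calls that define that number, and a maximum or a merged width grows with the number of peaks it is taken over. The highest −log10 q-value of a region had a median of 3.71 for regions in 1 list, 6.30 in 2, 8.12 in 3 and 21.6 in 4. For the regions in all 6 lists it was 322. Median width was 231 bp in 1 list, 318.5 bp in 2, 505 bp in 3 and 460 bp in 4, against 1254 bp for regions in all 6 lists. The narrowest members, of 146 bp, were in the ubiquitin gene UBI4 on chromosome 7 (343449 to 343594) and between TDEL0D05600 and FHN1 on chromosome 4 (1011450 to 1011595). Both were in Orc2 library 2 alone.

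The 16 regions in all 4 lists are given in full, since both libraries of both subunits held them. The strongest lay in BPH1, which encodes a BEACH-domain protein, on chromosome 6 (551792 to 552330). Its fold enrichment was 7.51 and 4.30 in Orc2 libraries 1 and 2 and 4.80 and 4.39 in Orc4 libraries 1 and 2. The nearest Orc1 peak was 21438 bp away. Next came a region between APL1, which encodes an adaptin of endocytosis, and SAG1, which encodes the alpha-agglutinin of mating cells, on chromosome 5 (750849 to 751402). Here the Orc2 values were 5.12 and 4.93 and the Orc4 values 5.94 and 3.36. In these 2 regions every list was above 3.

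In 7 further regions the 4 values lay between 2.28 and 4.19. A region on chromosome 8 (499189 to 499679) between YEA4, a nucleotide-sugar transporter gene, and GIM4, which encodes a prefoldin subunit, had 3.81 and 2.91 for Orc2 and 4.07 and 3.08 for Orc4. Beside ATP10, which encodes an assembly factor of mitochondrial ATP synthase (chromosome 5, 235604 to 235919), the values were 4.04 and 3.15 for Orc2 and 3.08 and 2.80 for Orc4. HSP12 encodes a small stress-induced membrane protein, and its whole length was covered by a region on chromosome 3 (142620 to 143313). Values there were 3.92 and 2.76 for Orc2 and 3.82 and 2.55 for Orc4. Between IBD2 and RIA1 on chromosome 6 (137943 to 138398) they were 3.42 and 2.47 for Orc2 and 3.59 and 2.89 for Orc4. In all 4 of these regions library 1 was above library 2 for both subunits.

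GDH1 encodes a glutamate dehydrogenase, and the region beside it on chromosome 8 (772069 to 772409) had 3.56 and 2.57 for Orc2 and 2.90 and 2.44 for Orc4. The region with the summit in TRM1, a tRNA methyltransferase gene, on chromosome 6 (742314 to 743319) had 2.52 and 2.67 for Orc2 and 3.54 and 2.36 for Orc4. It also covered all of COX26, named for a cytochrome oxidase subunit. In FRS1, which encodes a phenylalanyl-tRNA synthetase subunit (chromosome 3, 92173 to 92477), the values were 4.19 and 3.28 for Orc2 and 3.94 and 2.28 for Orc4. TRM1 was the only region of these 3 in which Orc2 library 2 exceeded Orc2 library 1.

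In the other 7 regions at least 1 list was close to 2 or below it. At CAR2, which encodes an ornithine transaminase, and DIF1 (chromosome 4, 186372 to 186964), Orc2 gave 2.18 and 2.02 and Orc4 gave 4.53 and 2.94. Orc4 was above Orc2 in both libraries there. Beside the tRNA gene TDEL0Gtrna6E (chromosome 7, 679916 to 680379), Orc2 gave 2.47 and 2.81 and Orc4 gave 3.76 and 2.02. At the tRNA gene TDEL0Dtrna3S (chromosome 4, 574052 to 574496), the values were 2.56 and 3.16 for Orc2 and 3.09 and 2.02 for Orc4. Between MRPL24 and the ribosomal protein gene RPL36A (chromosome 1, 1218606 to 1218920), they were 2.45 and 3.21 for Orc2 and 3.34 and 1.98 for Orc4. In these 3 regions Orc4 library 2 was the lowest list. Each of them lay within 500 bp of a region in all 6 lists. Those neighbours had 56.0, 23.9 and 41.9 in Orc4 library 1, in the same order.

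A region over the whole of TDEL0B06980, between ARA2 and the nucleoside diphosphate kinase gene YNK1 (chromosome 2, 1232935 to 1234041), had 1.89 and 2.89 for Orc2 and 4.14 and 2.31 for Orc4. It lay 217 bp from a region in all 6 lists that had 51.5 in Orc4 library 1. Between HOS1, a histone deacetylase gene, and the spermidine synthase gene SPE3 (chromosome 3, 903059 to 903385), Orc2 gave 2.86 and 2.36 and Orc4 gave 2.52 and 1.76. The weakest lay beside ADH6, an alcohol dehydrogenase gene (chromosome 5, 34068 to 34368), with 2.41 and 2.00 for Orc2 and 2.02 and 1.67 for Orc4. Orc4 library 2 was the lowest list at 11 of the 16 regions, and Orc4 library 1 was above it at 16 of 16. Across these 16 regions Spearman's rho of fold enrichment was 0.57 between the Orc2 libraries and 0.71 between the Orc4 libraries, and from 0.26 to 0.56 between an Orc2 and an Orc4 library, over points that share the mock control. The number of such regions rested on Orc4 library 2, without which 42 regions were in all remaining Orc2 and Orc4 lists. With peaks within 500 bp merged, 12 regions were in all 4 lists.

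**Figure D3:**
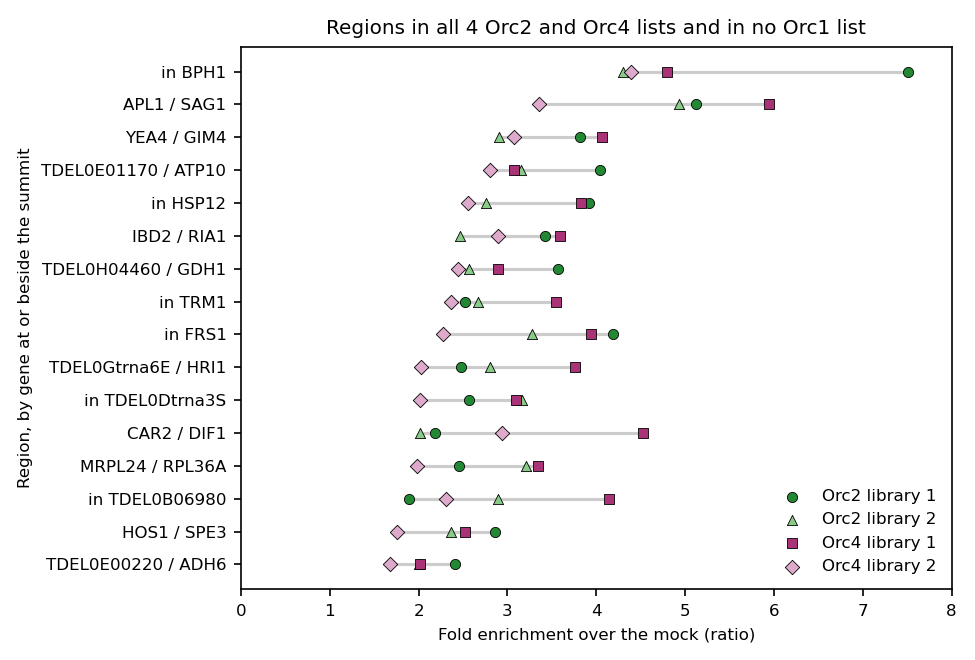
Fold enrichment over the mock (horizontal axis) in each of the 4 lists (symbols) at the 16 regions found in all Orc2 and Orc4 lists and in no Orc1 list (vertical axis, ordered by the lowest value). The regions in BPH1 and between APL1 and SAG1 lie above 3 in every list, and Orc4 library 2 was the lowest list at 11 of 16.

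Below these came 29 regions in 3 lists, 26 of which were in both Orc2 lists and Orc4 library 1. The other 3 were in Orc2 library 2 and both Orc4 lists. The highest value among the 29 was 3.18 in Orc4 library 1, between MND1, a meiotic recombination gene, and GTS1 on chromosome 2 (832189 to 832434), with 2.61 in Orc2 library 2 and 2.64 in Orc4 library 2. A region between RGT1, which encodes a glucose-responsive repressor, and OTU2 on chromosome 2 (1130258 to 1130488) had 2.46 and 2.76 for Orc2 and 2.96 in Orc4 library 1. One between FKS1, a glucan synthase gene, and TDEL0D02790 on chromosome 4 (533088 to 533433) had 2.17 and 2.94 for Orc2 and 1.94 in Orc4 library 1. The rest of the 6 highest were at HXK2, TDEL0Dtrna1E and TDEL0Btrna5F, described below. Regions in 3 lists had their summit in a protein-coding gene more often than other members, at 17 of 29 (58.6%) against 43.3% of all 240. This share was not tested.

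Regions without Orc1 covered several glycolytic genes along most of their length. Glycolysis turns glucose into pyruvate, and its enzymes are among the most strongly expressed proteins of yeast grown on glucose. Of the 14 genes of glycolysis and fermentation matched by symbol, 9 (64.3%) were overlapped by a region without Orc1, against 3.92% of all 5174 annotated genes. A region lay within 1000 bp of 10 of the 14 (71.4%), against 10.8% of all genes. The symbols of this list were written out after the members' positions had been seen, so these shares are a description and were not tested. Of the same 14 genes, 1 (7.14%) lay within 1000 bp of a region in all 6 lists, against 11.2% of all genes. ADH4 was the gene with a region nearby and none over it. At 7 of the 9 genes the same 3 lists had peaks, namely both Orc2 lists and Orc4 library 1, and from 57.2% to 98.1% of the gene was covered.

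The hexokinase gene HXK2 (chromosome 4, region 1163272 to 1164810) had 2.57 and 3.09 in the Orc2 lists and 2.34 in Orc4 library 1, and 98.1% of the gene lay in the region. The phosphoglycerate kinase gene PGK1 (chromosome 2, 1015523 to 1016916) had 2.40 and 2.09 for Orc2 and 2.64 for Orc4, with 91.3% of the gene covered. The phosphoglycerate mutase gene GPM1 (chromosome 5, 699027 to 699831) had 1.81 and 2.14 for Orc2 and 2.47 for Orc4. Across the 7 genes all values lay between 1.78 and 3.09, and the highest list was Orc2 library 2 at some genes and Orc4 library 1 at others.

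TPI1, which encodes triose phosphate isomerase (chromosome 4, 630146 to 630682), had 2.21 and 2.22 for Orc2 and 2.04 for Orc4. The enolase gene ENO2 (chromosome 7, 174702 to 175999) had 1.87 and 1.89 for Orc2 and 2.16 for Orc4, with 95.1% covered. The aldolase gene FBA1 (chromosome 2, 1176315 to 1177470) had 1.84 and 1.95 for Orc2 and 2.14 for Orc4, with 90.1% covered. In all 7 the summit lay inside the gene. The glyceraldehyde phosphate dehydrogenase gene TDH2 (chromosome 5, 891439 to 892292) had 1.78 and 1.87 for Orc2 and 1.84 for Orc4, with 85.5% covered. PGI1, which encodes phosphoglucose isomerase, was overlapped in Orc2 library 1 alone (1.75), and PFK1, which encodes a phosphofructokinase subunit, in Orc4 library 1 alone (1.67). No region without Orc1 overlapped PDC1, PFK2, ADH3, ADH4 or PYK2. No glycolytic region was in Orc4 library 2. With Orc4 library 1 left out, 10 regions again lay within 1000 bp of these genes, a set without the PFK1 region.

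Of the 28 regions over 600 bp wide, the glycolytic ones included, 22 had their summit in a protein-coding gene (78.6%), a share near the 79.3% of chromosome length that lies in annotated genes. Among the other wide members was CTT1, a catalase gene, on chromosome 3 (999699 to 1000621), with 2.45 as its highest value. PNC1, a nicotinamidase gene on chromosome 6 (504340 to 505234), was covered over 99.2% of its length, with 1.99 and 1.79 for Orc2 and 2.01 in Orc4 library 1. A narrower region of 294 bp lay in CCW12, which encodes an abundant cell-wall protein (chromosome 6, 800122 to 800415), and was in the same 3 lists with 1.51 and 1.72 for Orc2 and 1.82 for Orc4. In the 17 three-list regions with the summit in a protein-coding gene, the summits of the lists spanned a median of 150 bp, against 46.5 bp in the other 12. The spans of the 4 Orc2 and Orc4 summits had medians of 70 bp at the 16 regions in all 4 lists and 28.5 bp at the 198 regions in all 6 lists.

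Of a further list of 27 genes, labelled as of high expression, 8 (29.6%) lay within 1000 bp of a region without Orc1. The share of all genes was 10.8%. Of the 27, 5 (18.5%) lay that close to a region in all 6 lists, against 11.2% of all genes. The 8 were ACT1, AHP1, CAM1, CCW12, CTA1, CTT1, HSP12 and TRX2, with CAM1 and CTA1 at the same region. Expression was not measured, HSP12 is described above as stress-induced, and the symbols were written out after the members' positions had been seen. The share thus says nothing about expression. Of 11 histone genes, 4 (36.4%) lay near a region without Orc1 and 3 (27.3%) near a region in all 6 lists, with HTA1 overlapped in Orc4 library 1 alone (1.93) and HTB2 in Orc2 library 2 (2.198) and Orc4 library 1 (2.274). No region without Orc1 lay within 1000 bp of the 2 annotated mating-type genes, the 11 rRNA genes or the 2 hexose transporter genes. Beside the 10.8% of all genes, lists this short say nothing particular. Near the rRNA genes lay 2 regions with Orc1 and some Orc2 or Orc4 lists, and 1 with Orc1 peaks only. The rule leaves such regions out. The 2 mating-type genes lay near a region in all 6 lists.

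The 2 widest members lay over ORC1 and RAP1 and came from Orc2 lists. A region of 2999 bp on chromosome 4 (164731 to 167729) covered 96.1% of ORC1, the gene of the missing subunit. It was 2999 bp wide with fold enrichment of 4.04 in Orc2 library 1, and 165 bp wide with 2.17 in Orc2 library 2, and no Orc4 list had a peak there. The widest member, 3290 bp on chromosome 1 (118596 to 121885), covered all of RAP1, which encodes a general regulatory factor of telomeres and promoters. It was in Orc2 library 1 alone, with 2.18. It also covered 91.9% of PPN2. Both regions owed their width to a peak in Orc2 library 1.

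Genes of replication and of silencing were also set beside all genes. Of 48 ORC and replication genes, 4 lay within 1000 bp (8.33%, against 10.8% of all genes). Besides ORC1 these were MCM2, which encodes a helicase subunit, TAH11, which encodes a helicase loading factor, and RNR4, a ribonucleotide reductase gene. The region beside MCM2 on chromosome 2 (774747 to 774967) had 3.36 in Orc2 library 1 and 1.98 in Orc4 library 1. Of 26 silencing and general regulatory genes, 4 lay within 1000 bp (15.4%): RAP1, HST3, a sirtuin gene, MSI1 and ESC2. These shares lay on either side of the 10.8% of all genes, rest on 4 genes each and say nothing particular about these lists.

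Ribosomal protein genes were often beside a region without Orc1, mostly in Orc4 library 1. They encode the protein part of the cytosolic ribosome. Of 62 such genes, 29 (46.8%) lay within 1000 bp of a region without Orc1, against 10.8% of all genes. Within 1000 bp of a region in all 6 lists lay 8 (12.9%), near the 11.2% of all genes. The 34 regions near them included 19 found in Orc4 library 1 alone and 1 found in Orc4 library 2. Without Orc4 library 1, 14 regions lay near these genes. Counting only regions in 2 or more lists, 9 of 62 genes (14.5%) remained near a region, against 5.2% of all genes.

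These regions were narrow and lay mainly between genes. Their median width was 246 bp, and 22 of 34 had the summit between genes. The highest value, 3.36 in Orc4 library 1 alone, lay between RPL5 and RCN2 on chromosome 1 (1032996 to 1033307). Between RLM1 and RPS6A on chromosome 1 (905318 to 905623), Orc2 library 2 had 2.24 and Orc4 library 1 had 3.28. The region between QCR6 and RPL29 on chromosome 8 (430842 to 431108) had 2.42 in Orc2 library 2 and 2.92 in Orc4 library 1. These 3 regions were highest in Orc4 library 1 and missing from Orc2 library 1 and Orc4 library 2. The region beside RPL36A, above, was the sole member near these genes that was in all 4 lists.

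**Figure D4:**
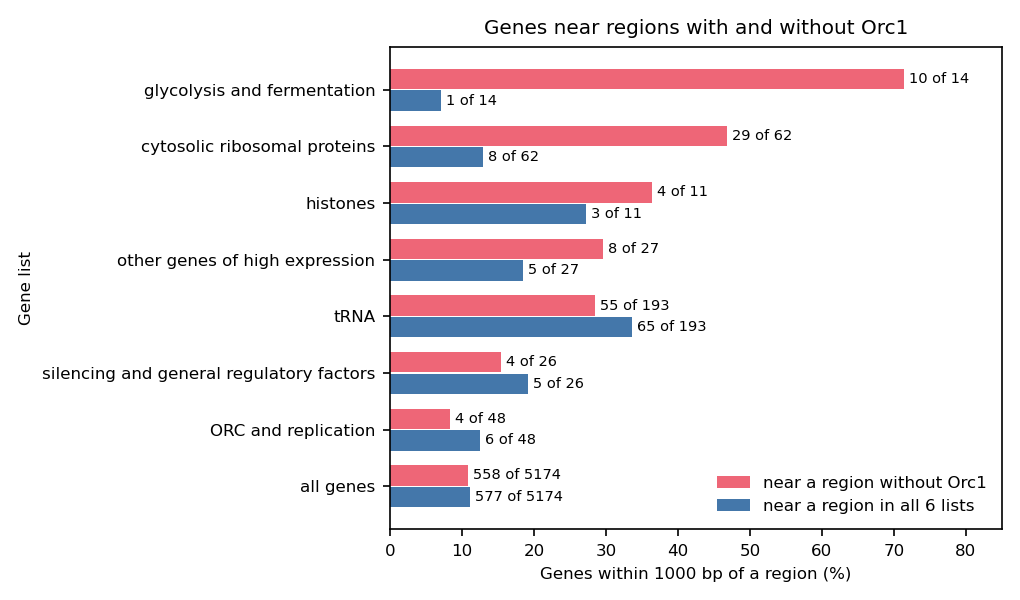
Share of the genes of each list (vertical axis) that lay within 1000 bp of a region (horizontal axis, %), for regions lacking Orc1 in red and regions in all 6 lists in blue, with counts beside the bars. Glycolysis (10 of 14) and ribosomal protein genes (29 of 62) lay near regions lacking Orc1, against 558 of 5174 for all genes. For regions in all 6 lists, the count for all genes was 577 of 5174. The lists were chosen with earlier results of these data known, and these shares were not tested.

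tRNA genes were near regions without Orc1 about as often as near regions in all 6 lists. tRNA genes are short and are transcribed by RNA polymerase III. Within 1000 bp of such a gene lay 53 of the 240 regions (22.1%), 51 of the 198 regions in all 6 lists (25.8%) and 2 of the 84 regions with Orc1 peaks only (2.38%). These shares were not tested. Such places make up 4.02% of the chromosome length. The summit fell inside a tRNA gene at 30 of the 240 regions and at none of the 198, although 45 of the latter overlapped such a gene.

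Of the 53 regions, 29 were in 1 list, and 20 of these were in Orc4 library 1 alone. Their highest value had a median of 2.29 and reached 4.14, at TDEL0B06980 beside TDEL0Btrna6F. A region at TDEL0Btrna5F (chromosome 2, 870268 to 870629) had 2.58 and 2.85 for Orc2 and 2.502 in Orc4 library 1. One between TDEL0Dtrna1E and RPS25A (chromosome 4, 550148 to 550595) had 2.87 and 2.79 for Orc2 and 2.68 in Orc4 library 1. In both regions the lists lay close together. TDEL0Htrna4G (chromosome 8, 246644 to 246839) had a peak of 2.88 in Orc2 library 2 alone. Without Orc4 library 1 the count of regions near tRNA genes was 34, and 24 of the 53 were in at least 2 lists.

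In all, 95 of the 240 regions lay within 1000 bp of a tRNA, ribosomal protein or glycolysis gene, and 145 lay near none of them. The 145 included 12 of the 16 regions in all 4 lists. Their summits were in protein-coding genes at 80 and between genes at 65.

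Among members in 2 lists, the highest values after ORC1 were at IMA2, an isomaltase gene near the left end of chromosome 1 (10724 to 11075), with 3.81 in Orc2 library 1 and 2.03 in Orc4 library 2. Next were the space between MNL1 and TDEL0D00350 on chromosome 4 (61082 to 61365; 2.22 in Orc2 library 1 and 3.52 in Orc4 library 1) and that between MNT4 and the allantoate transporter gene DAL5 on chromosome 6 (1058451 to 1058684; 2.73 in Orc2 library 2 and 3.34 in Orc4 library 1). MCM2 and RPS6A, above, complete the 6. IMA2 was the sole member held by just Orc2 library 1 and Orc4 library 2. Of the members in 1 list, the highest after RPL5 were in Orc4 library 1, between RHO5 and TDEL0A01180 on chromosome 1 (199283 to 199591; 3.20) and between RRT5 and TDEL0H02600 on chromosome 8 (432541 to 432724; 3.005). XRS2, a DNA double-strand break repair gene on chromosome 5 (361414 to 361672), had 2.92 in Orc2 library 1. The space between RPS26A and COX4 on chromosome 2 (824190 to 824396) had 2.87 in Orc4 library 1, and TDEL0Htrna4G, above, completes the 6.

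Over all members, summits lay between genes less often than at regions in all 6 lists. The summit was outside annotated genes at 106 of 240 regions (44.2%), in a protein-coding gene at 104 (43.3%) and in a tRNA gene at 30 (12.5%). The share outside genes was 89.9% at the 198 regions in all 6 lists, 58.3% at the 84 with Orc1 peaks only, and 20.7% of the chromosome length. By number of lists it was 40.7% in 1, 51.7% in 2, 34.5% in 3 and 62.5% in 4. Gene orientation was not used here, so promoters and gene ends were not separated.

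Many members lay near a region in all 6 lists. The median distance to the nearest was 5706 bp, with quartiles of 1822 and 15575 bp. With each list cut to peaks of −log10 q of 10 or more, members and regions in all 6 lists were both rebuilt. The median of those 56 members was then 11704.5 bp, to a different set of regions. Among the 240 members, the nearest was within 5 kb for 110 (45.8%). Of the chromosome length outside the regions in all 6 lists, 21.0% is that close to one. Of the 84 regions with Orc1 peaks only, 41 (48.8%) were also that close, with a median distance of 5180 bp. The nearest was within 500 bp for 21 members and over 20 kb for 28. Median distance was 7130 bp for members in 1 list, 4949 bp in 2, 4029 bp in 3 and 13344 bp in 4. Within 500 bp lay 12 of the 135 members in 1 list, 3 of 60 in 2, 2 of 29 in 3 and 4 of 16 in 4. The nearest lay in MDH2, a malate dehydrogenase gene on chromosome 5 (124115 to 124697), 26 bp from such a region, with 2.16 and 1.77 for Orc2 and 1.82 in Orc4 library 1.

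Others of the nearest were in TDEL0G04800 on chromosome 7 (877100 to 877329), at 61 bp, and in SER2, a serine biosynthesis gene on chromosome 5 (931869 to 932160), at 97 bp. They were followed by regions between TDEL0D00100 and TDEL0D00110 on chromosome 4 (5949 to 6226), at 102 bp, and between TDEL0G04820 and BIO5 on chromosome 7 (889718 to 890214), at 121 bp. Each of these 4 was in 1 list. The farthest was TRM1, at 45765 bp, then AZF1 to TIM9 on chromosome 2 (925245 to 925449) at 39731 bp, and TDEL0Etrna13L on chromosome 5 (1045147 to 1045398) at 36310 bp. The TRM1 region was in all 4 lists, and the other two were in 2 lists and 1 list.

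**Figure D5:**
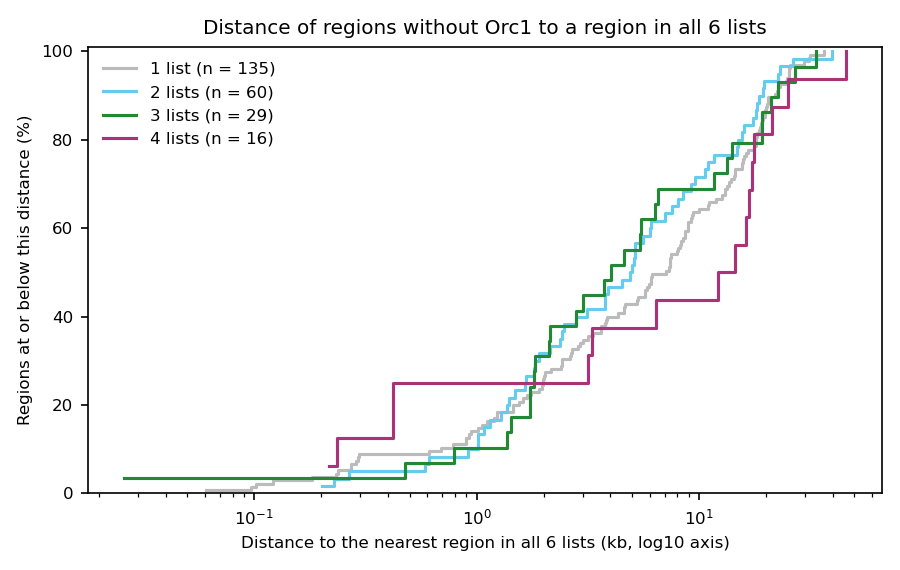
Cumulative share of regions lacking Orc1 (vertical axis, %) by distance to the nearest region in all 6 lists (horizontal axis, kb, log10 scale), for regions in 1, 2, 3 and 4 lists. The line for 4 lists (n = 16) crosses 50% at the greatest distance, with a median of 13344 bp against 4029 to 7130 bp for the others. Of these 16, 4 lay within 500 bp of a region in all 6 lists.

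The rule turns on any overlap with an Orc1 peak, so the regions on both sides of it are given. The members closest to an Orc1 peak were SFP1 on chromosome 5 (216097 to 216308), 59 bp away, TDEL0G04800 at 61 bp, SER2 at 97 bp, the chromosome 4 region at 5949 at 102 bp, and SDH2 on chromosome 7 (359819 to 360042) at 182 bp. Each was in 1 list, with at most 2.19. On the other side, the smallest overlap with an Orc1 peak was 149 bp, between TDEL0B07680 and TDEL0B07690 at the right end of chromosome 2, then 150 bp between UBA2 and IDH2 on chromosome 1 and 158 bp between TDEL0E04100 and DNM1 on chromosome 5. Overlaps of 166 and 186 bp came next, between the 18S and 5S genes of the ribosomal DNA on chromosome 8. At the overlaps of 149, 166 and 186 bp the Orc2 peak lay wholly inside an Orc1 peak, so the overlap was the width of that narrow peak. The overlaps of 150 and 158 bp were parts of 286 and 253 bp with an Orc2 or Orc4 peak. No non-member with an Orc2 or Orc4 peak thus shared fewer than 149 bp with an Orc1 peak. Of the members, 32 had an Orc1 peak within 1 kb and 77 (32.1%) had none within 10 kb.

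Few members lay near chromosome ends. Of the 240, 3 had a centre at most 20 kb from an end and 27 were 20 to 100 kb away. Places within 20 kb of an end make up 3.47% of the chromosome length. The nearest was the chromosome 4 region at 5949, with its centre 6086 bp from the end and 1.74 in Orc2 library 2 alone, followed by IMA2 at 10898 bp and MNT4 to DAL5 at 12114 bp. Of the 84 regions with Orc1 peaks only, 53 lay within 20 kb of an end, as did 16 of the 198 regions in all 6 lists. The rule keeps no region with an Orc1 peak, so these places were not open to members, and the low count was not tested. With Orc1 library 2 left out, 7 members lay within 20 kb.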

How the data were processed

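Peak lists of 6 immunoprecipitates were analysed, 1 per library, out of 9 samples. Per the submitters' processing notes, the tools were MACS2 2.2.7.1, Bowtie2 2.3.4.1 and cutadapt 2.10, with settings and genome build not given in the sources used here. Each peak carries −log10 p-values and q-values deposited by the authors, and a deposited fold enrichment, which is its ratio to the control. The lists hold no read counts, so depth is unknown and no counting interval is given for a peak. Sequence names were matched to the 8 chromosomes of assembly ASM24337v1, whose gene table was used for names and positions. Summits fell outside genes most often on the equally numbered chromosome for 8 of 8 sequences (65.5% to 76.3%, against at most 36.0% elsewhere). Coordinates are 1-based.

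Where a list had several peaks in a region, the one with the highest −log10 q was used, and summits were averaged over lists. Distances are between edges. Chromosome ends are the last gene or peak position. Members and gene lists were chosen with earlier results of these data known, and the symbols of the lists were written out after the members' positions had been seen. Genes were matched by symbol. The members named are all those in 4 lists, the 6 with the highest fold enrichment in 3, 2 and 1 lists, the nearest to and farthest from regions in all 6 lists, those nearest to Orc1 peaks and chromosome ends, the widest and narrowest, and examples near listed genes. PNC1 and FLR1 were chosen after their values were seen. Regions are not replicates, so they were described without tests. Libraries were compared with an exact permutation test. Merging and distances were tested on simulated data. Python 3.11.15 and pandas 2.3.3 were used.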

Additional observations from a re-analysis of the deposited data

How the results depend on the processing

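At −log10 q of at least 10 in every list, with members and regions in all 6 lists rebuilt, there were 56 members. Of these, 8 were in all 4 lists and 64.3% in 1 list. The summit lay outside genes at 62.5%, and 10 lay near a tRNA gene. The median width was 374 bp, and the median distance to a region in all 6 lists was 11704.5 bp. The difference between Orc4 and Orc2 in the share of peaks was then 3.01 percentage points, the reverse of the −2.21 reported (exact permutation p = 1). With equal numbers of peaks per list (248), there were 73 members, 54.8% with the summit outside genes and 15 near a tRNA gene. The cause of these changes beyond fewer peaks was not tested. At −log10 q of at least 3 there were 183 members. With overlap of at least 50% of the shorter peak there were 248, and with peaks within 500 bp merged there were 198. A window of 50 kb put 13 members near an end, and 24 members in at least 2 lists lay near a tRNA gene, an alternative chosen after seeing the data, as were those on ribosomal protein and glycolysis genes.

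Leaving out each library in turn gave 163 to 248 members, the fewest without Orc4 library 1, and 16 to 42 in all remaining Orc2 and Orc4 lists. The share in 1 list was 54.8% to 67.0%, the median width 244 to 289 bp, the median distance to a region in all lists 5143 to 5865 bp, and the share with the summit outside genes 41.1% to 47.9%. Between 34 and 55 members lay near a tRNA gene and 2 to 7 within 20 kb of an end. The difference between Orc4 and Orc2 ranged from −19.5 percentage points without Orc4 library 1 to 14.6 without Orc4 library 2. With the library number as a replicate block it was −2.21 percentage points (sign-flip permutation p = 1 over 2 pairs, of which the smallest possible is 0.5). The labels do not say that a library number marks a shared batch. Differences between library 1 and 2 in log2 fold enrichment had a correlation of 0.19 between Orc2 and Orc4 over 198 regions, as a description.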

Other observations

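Members were unevenly spread over chromosomes. Chromosome 2 held 47, or 3.47 per 100 kb, and chromosome 8 held 13, or 1.56 per 100 kb, while regions in all 6 lists numbered 1.99 and 2.28 per 100 kb there. The median gap between neighbouring members was 18370.5 bp. Gaps of at most 1000 bp joined 49 members into 24 groups, the largest of 3 members at FLR1, a multidrug transporter gene, on chromosome 4 (1165932 to 1167980), next to HXK2. Several groups paired a ribosomal protein gene with the space beside it, as at RPS7A, RPS14B, RPS16B, RPS25A, RPS26A and RPL12B. Such pairs are not independent members. Merging peaks within 500 bp left 198 members. Such merging also joins members to nearby regions with Orc1, and 21 members lay within 500 bp of a region in all 6 lists.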
